A study of Mus musculus with 8 samples.

Results

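AP-1 is a family of transcription factors built as pairs of leucine-zipper proteins. It was followed here through 8 genes in mouse liver, which encode the Fos proteins (Fos, Fosb, Fosl1 and Fosl2), the Jun proteins (Jun, Junb and Jund) and Atf3. The members are the rows of the deposited gene count table whose Ensembl identifiers map to these symbols in the GENCODE annotation of GRCm38. They make up 8 of the 23006 genes in the table, and all 8 were among the 16876 genes that passed the filter on low counts.

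RNA of whole liver from wild-type mice gave 8 libraries, 2 for each of 4 groups. The SLIT2+APAP group was given SLIT2, the secreted protein that ROBO receptors bind, by intraperitoneal injection at 2 µg per mouse for 3 days, and a hepatotoxic dose of acetaminophen (APAP) of 400 mg/kg. The APAP group was given saline in place of SLIT2 and the same dose of APAP, the SLIT2 group was given SLIT2 without APAP, and the control group was given phosphate-buffered saline alone. Livers were collected 24 h after APAP, and the sources used here give no strain, sex or age. The APAP libraries are numbered 3 and 4, and those of each other group 1 and 2. No label states that the 2 libraries of a group come from different mice, so the spread between them may be technical, and the p-values measure that spread alone.

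Fos proteins cannot pair with one another and bind DNA mainly as dimers with a Jun protein, whereas Jun proteins also pair among themselves. Fos, Fosb, Jun, Junb and Atf3 are immediate early genes, transcribed within minutes of a growth factor or stress signal through serum response factor, CREB and the MAP kinases, and their messages decay quickly. Jund is held at a steady level in most resting tissues. In hepatocytes, the JNK kinases phosphorylate Jun during acetaminophen toxicity, and Jun and Fos rise early in liver regeneration.

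Of the 6 members that passed the test in APAP against control or SLIT2+APAP against APAP, the promoters of the 5 that held one of the elements named here are shown first, because short elements close to the start site are a known route by which stress signals reach these genes. The windows are the 200 bases before the RefSeq start of each gene on GRCm38.p6, written 5′ to 3′ on the gene's strand. Capitals mark TGACG (the first letters of the cyclic AMP response element), or its reverse complement CGTCA, and in Jun the elements TGACATCA and TTACCTCA, which are bound by Jun and ATF2 in the human gene.
Fos promoter (chr12:85473690-85473889, plus strand): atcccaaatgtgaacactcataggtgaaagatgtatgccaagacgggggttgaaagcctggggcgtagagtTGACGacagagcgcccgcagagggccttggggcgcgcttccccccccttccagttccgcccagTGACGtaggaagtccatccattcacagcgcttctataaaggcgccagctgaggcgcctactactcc
Fosb promoter (chr7:19310046-19310245, minus strand): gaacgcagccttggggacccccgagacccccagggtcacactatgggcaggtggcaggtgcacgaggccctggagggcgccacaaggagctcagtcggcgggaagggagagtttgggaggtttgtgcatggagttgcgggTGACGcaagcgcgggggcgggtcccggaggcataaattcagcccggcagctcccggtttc
Jun promoter (chr4:95052223-95052422, minus strand): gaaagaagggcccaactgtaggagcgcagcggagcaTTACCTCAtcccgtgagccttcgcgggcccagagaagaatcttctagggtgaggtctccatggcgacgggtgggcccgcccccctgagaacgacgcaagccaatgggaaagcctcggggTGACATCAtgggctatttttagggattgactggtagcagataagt
Junb promoter (chr8:84978749-84978948, minus strand): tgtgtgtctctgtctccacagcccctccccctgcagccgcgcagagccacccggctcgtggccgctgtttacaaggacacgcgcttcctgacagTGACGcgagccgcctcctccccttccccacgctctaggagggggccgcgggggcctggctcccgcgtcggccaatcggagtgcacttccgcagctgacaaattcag
Atf3 promoter (chr1:191183334-191183533, minus strand): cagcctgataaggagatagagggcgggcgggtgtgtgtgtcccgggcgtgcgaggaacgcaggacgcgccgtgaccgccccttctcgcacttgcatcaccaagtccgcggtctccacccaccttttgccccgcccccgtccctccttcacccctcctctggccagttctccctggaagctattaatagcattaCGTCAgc
Positions are counted back from the start site. TGACG lay at -129 to -125 and at -66 to -62 in Fos, at -60 to -56 in Fosb and at -106 to -102 in Junb, and its reverse complement lay at -7 to -3 in Atf3. In Jun, TGACATCA lay at -45 to -38 and TTACCTCA at -164 to -157. TGACG was present on either strand in 15.7% of the 32851 promoters of the table, TGACATCA in 2.66% and TTACCTCA in 0.594%. These 3 elements were chosen after the promoters had been read, and TGACG also occurs within the full cyclic AMP response element. The AP-1 site TGANTCA (5.48% of promoters), the full element TGACGTCA (1.47%) and the CArG box bound by serum response factor (1.18%) had no match in the windows of the 7 members found in the table. Sites farther upstream than these 200 bases were not searched, so the genes may hold such elements there. The Fosl2 and Jund windows held none of the 6 elements, and Fosl1 was not matched. The RefSeq start of Jund lies upstream of the GENCODE gene start, and those of Atf3 and Fosl2 lie downstream of it, within the gene. None of these windows is therefore at the first start of the counted gene. The Jund window ended at 70697738 on chr8, and the counted gene starts at 70698949. The lack of elements in the Jund and Fosl2 windows thus does not cover the bases before the start of the counted genes.

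Libraries held 60.8 to 100.5 M counts in total, M standing for 1000000. The 13 mitochondrially encoded genes took 25.1% and 30.3% of the counts in the SLIT2+APAP libraries, 14.9% and 13.4% in APAP, 60.2% and 69.0% in SLIT2 and 16% and 17.3% in control. All other genes together had 25.1 and 18.9 M counts in the SLIT2 libraries and 80.2 and 83.2 M in control. Of 9 hepatocyte markers 8 were in the table and none was at 0. Their summed level was 65994 and 64253 CPM in SLIT2+APAP, 98278 and 80752 CPM in APAP, 16793 and 9499 CPM in SLIT2 and 51453 and 70811 CPM in control, where CPM is counts per 1000000 counts on library sizes scaled by TMM. The 6 skeletal muscle markers summed to at most 2.1 CPM in each library of the 3 other groups, with 1 marker at 0 in SLIT2 1, against 811 and 89.1 CPM in control. The part of these differences in the AP-1 results was not tested. In whole tissue, fewer cells of a type and less RNA per cell cannot be told apart.

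With APAP, all 8 members had their highest level, and the lowest APAP library lay above every library of the other 3 groups for each member. Fos, Jun, Junb and Jund rose against control, by 43.6-fold, 44.2-fold, 8.95-fold and 3.83-fold. In SLIT2+APAP livers Fos, Fosb, Jun, Junb, Jund and Atf3 fell against APAP alone. Neither SLIT2+APAP livers nor SLIT2 livers had a member that differed from control past the threshold. The test was edgeR's quasi-likelihood test fitted to all 8 libraries, with Benjamini-Hochberg adjustment over the 16876 genes, and a gene was called at an adjusted p under 0.05.

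Against control, APAP livers had 4 of 8 members called higher, where 0.332% of all genes tested were called higher (56 genes). The median log2 fold change was 5.45 over the 8 members and 0.05 over all genes tested. In SLIT2+APAP against APAP, 6 of 8 members were called lower, where 7.64% of all genes tested were called lower, and the medians were -4.88 and -0.06. The libraries of the groups did not overlap for 8 of 8 members in either comparison. Over all genes tested, 26.9% were higher without overlap in APAP against control and 29.4% lower without overlap in SLIT2+APAP against APAP. Both comparisons use the same APAP libraries, so they are not independent of each other.

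**Figure D1:**
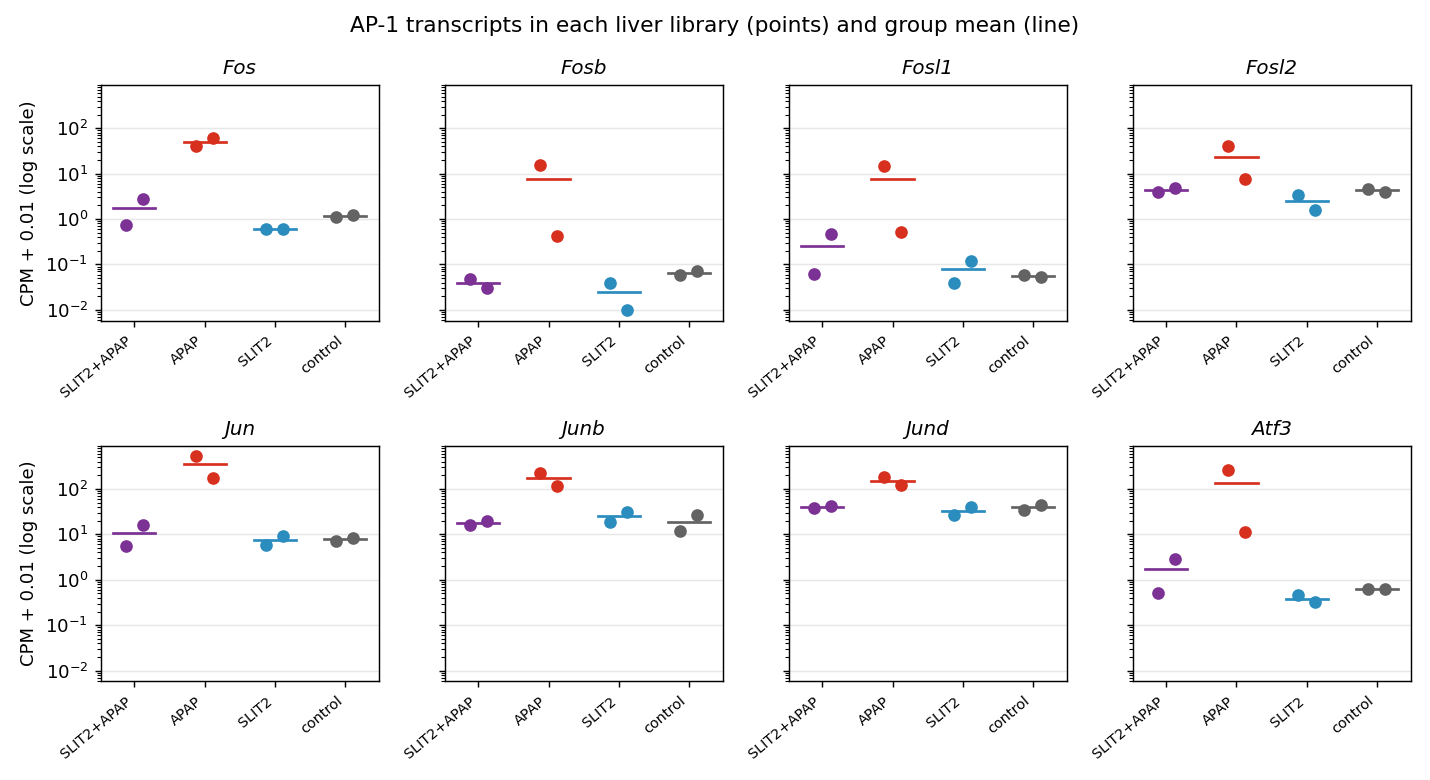
Level of each AP-1 member in every library, as CPM + 0.01 on a log axis, for SLIT2+APAP, APAP, SLIT2 and control livers; points are the 2 libraries of a group in the order of their numbers, and lines are group means. For each member both APAP points lie above all other points, and the 2 APAP points are far apart for Fosb, Fosl1 and Atf3 and close together for Fos and Jund.

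Among the Fos proteins, Fos itself had the closest agreement between APAP libraries. Fos lies at chr12:85473890-85477273 on the plus strand (ENSMUSG00000021250). It had 0.726 and 2.73 CPM in SLIT2+APAP livers, 40.01 and 62.0 CPM in APAP livers, 0.590 and 0.579 CPM in SLIT2 livers and 1.10 and 1.24 CPM in control livers. Both APAP libraries were far above the rest, and the SLIT2+APAP libraries spanned the control libraries, one below them and one above. Fos was higher in APAP than in control, with a log2 fold change of 5.44 ± 0.60 (SE, n = 2 each, edgeR adjusted p = 0.02723). In SLIT2+APAP against APAP it was lower, with a log2 fold change of -4.87 ± 0.58 (edgeR adjusted p = 0.005778).

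Fosb, a close relative of Fos that is nearly silent in resting tissue, lies at chr7:19302696-19310051 on the minus strand. Its counts were 3 and 2 in SLIT2+APAP, 1215 and 43 in APAP, 2 and 0 in SLIT2 and 4 and 6 in control. In CPM the APAP libraries had 15.2 and 0.418, and no other library exceeded 0.0631. The first APAP library thus held nearly all of the group's signal, although the second was also above every library of the other groups. The summed APAP counts were 123 times those of control on scaled library sizes (95% counting interval 66.7 to 257), a ratio to which APAP 3 gave 1215 of 1258 counts. In the fit this gave 7.08 ± 1.47 on the log2 scale with an edgeR adjusted p of 0.0534, which missed the threshold, and 2.88 without APAP 3. SLIT2+APAP against APAP gave -8.03 ± 1.61 and was called (edgeR adjusted p = 0.01392), and the summed APAP counts were 244 times those of SLIT2+APAP (104 to 753).

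Fosl1 encodes Fra-1, which lacks the transactivation domain of Fos, and lies at chr19:5447547-5455946 on the plus strand. It had 4 and 44 counts in SLIT2+APAP, 1206 and 53 in APAP, 2 and 6 in SLIT2 and 4 and 4 in control. The second SLIT2+APAP library, at 0.450 CPM, lay just below the second APAP library, at 0.515 CPM, while the first APAP library reached 15.04 CPM. Neither change was called. APAP against control gave a log2 fold change of 7.39 ± 1.74 (edgeR adjusted p = 0.07108), which was 3.49 without APAP 3, and SLIT2+APAP against APAP gave -4.89 ± 1.41 (edgeR adjusted p = 0.05275), which was -0.98 without APAP 3. Summed over libraries, SLIT2+APAP livers had 48 counts against 8 in control, a ratio of 6.05 on scaled library sizes (95% counting interval 2.84 to 14.8), which covers counting error only and not the 8.99-fold difference between the 2 SLIT2+APAP libraries.

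Fosl2 encodes Fra-2, which like Fra-1 lacks that domain. It lies at chr5:32135801-32157842 on the plus strand. It had 3.89 and 4.84 CPM in SLIT2+APAP livers, 39.7 and 7.48 CPM in APAP livers, 3.38 and 1.54 CPM in SLIT2 livers and 4.58 and 3.97 CPM in control livers. APAP 3 stood apart and APAP 4 was less than 2-fold above the highest of the other libraries. Fosl2 was not called in APAP against control (2.46 ± 0.70 on the log2 scale, edgeR adjusted p = 0.09904) or in SLIT2+APAP against APAP (-2.43 ± 0.70, edgeR adjusted p = 0.0563). Without APAP 3 these values were 0.81 and -0.78.

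The Jun proteins are the main partners of the Fos proteins. Jun lies at chr4:95049034-95052222 on the minus strand (ENSMUSG00000052684). It had 5.51 and 16.3 CPM in SLIT2+APAP livers, 524 and 172 CPM in APAP livers, 5.79 and 9.32 CPM in SLIT2 livers and 7.31 and 8.43 CPM in control livers. The APAP libraries were more than 10-fold above all others, and the SLIT2+APAP libraries lay on either side of control. APAP against control gave 5.46 ± 0.73 on the log2 scale (edgeR adjusted p = 0.03274), and SLIT2+APAP against APAP gave -4.99 ± 0.71 (edgeR adjusted p = 0.008448). The antisense gene Junos, which overlaps Jun, had 8 to 34 counts in each library.

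Junb, a Jun protein that activates transcription less strongly than Jun at many sites, lies at chr8:84974484-84978718 on the minus strand. It had 16.2 and 19.2 CPM in SLIT2+APAP, 226 and 116 CPM in APAP, 19.1 and 30.6 CPM in SLIT2 and 12.05 and 26.2 CPM in control. The 2 control libraries differed 2.17-fold, and the SLIT2+APAP libraries fell between them. Junb rose with APAP against control by 3.16 ± 0.48 (log2, edgeR adjusted p = 0.04201) and fell by 3.27 ± 0.48 in SLIT2+APAP against APAP (edgeR adjusted p = 0.009377). Prdx2, which overlaps Junb on the other strand, had log2 fold changes of -0.13 and 0.27 in these comparisons.

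Jund, the Jun protein of resting cells, lies at chr8:70698949-70700616 on the plus strand. It had 38.4 and 41.9 CPM in SLIT2+APAP livers, 183 and 122 CPM in APAP livers, 26.3 and 40.7 CPM in SLIT2 livers and 34.4 and 45.0 CPM in control livers. It had the smallest fold change of the called members, with 1.94 ± 0.31 on the log2 scale in APAP against control (edgeR adjusted p = 0.04327) and -1.92 ± 0.31 in SLIT2+APAP against APAP (edgeR adjusted p = 0.01106). The SLIT2+APAP libraries were within the range of control. An antisense gene on the same site, Gm11175, had 152 counts in APAP 4 and 0 in the other 7 libraries. Reads of overlapping genes can be told apart only if the counting used strand, and its strand setting is not given in the sources used here.

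Atf3 pairs with Jun proteins and is induced by the integrated stress response and by DNA damage. It lies at chr1:191170296-191218039 on the minus strand (ENSMUSG00000026628). It had 40 and 281 counts in SLIT2+APAP, 21252 and 1134 in APAP, 30 and 17 in SLIT2 and 51 and 58 in control. In CPM this was 0.501 and 2.88 in SLIT2+APAP, 265 and 11.02 in APAP, 0.442 and 0.308 in SLIT2 and 0.608 and 0.610 in control. The APAP libraries differed 24.1-fold, yet the lower one was still above the highest library of any other group, SLIT2+APAP 2. In APAP against control the log2 fold change was 7.82 ± 1.57 and missed the threshold (edgeR adjusted p = 0.06279), and it was 4.18 without APAP 3. Atf3 was called lower in SLIT2+APAP than in APAP, with a log2 fold change of -6.34 ± 1.45 (edgeR adjusted p = 0.02928). The call was lost in 10 of 19 alternatives, among them each fit without 1 library other than APAP 4, the fit without the SLIT2 libraries and that without a count filter. The value was -2.7 without APAP 3 and between -8.08 and -5.57 in the other 9.

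**Figure D2:**
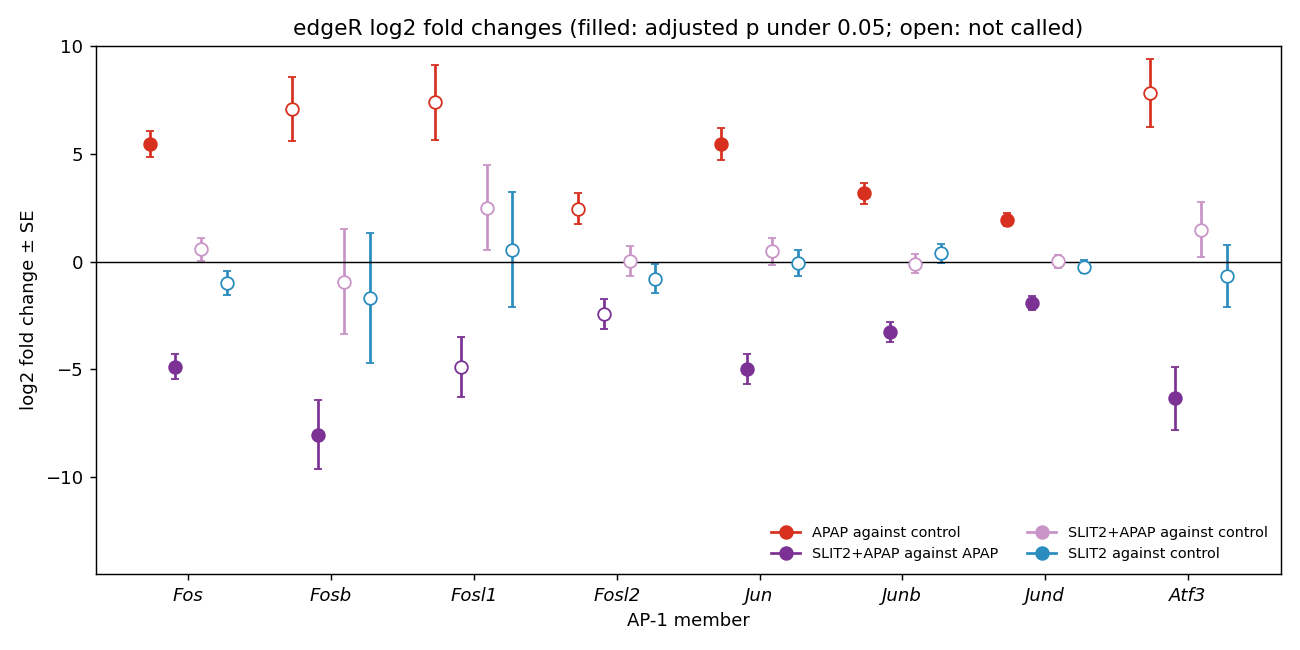
Log2 fold change of each AP-1 member from edgeR in 4 comparisons of 2 groups each, as the legend names them. Bars are approximate standard errors, and filled points passed an adjusted p of 0.05. All 8 members are above 0 in APAP against control and below 0 in SLIT2+APAP against APAP, and no point is filled in the other 2 comparisons.

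The number of calls changed with the libraries and the tool used, while the direction of every member stayed the same in all alternatives of both comparisons. For APAP against control the 4 calls became 0 without control 1, SLIT2 1 or SLIT2 2, 1 without either SLIT2+APAP library, 2 without control 2 and 8 without APAP 4. Calls over the whole table were 133 in the fit to all libraries, 20 without control 1, 0 without SLIT2 1 or SLIT2 2, 4 without either SLIT2+APAP library, 137 without control 2 and 5181 without APAP 4. DESeq2 called 8 of 8 members and 1836 genes, and a fit to the 4 compared libraries alone called 0 members and 0 genes.

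For SLIT2+APAP against APAP the 6 calls became 8 without APAP 4, 1 (Fos) without either SLIT2+APAP library, 8 with DESeq2 and 0 in a fit to the 4 compared libraries alone. Over all genes 2351 were called, 6133 without APAP 4, 177 without SLIT2+APAP 1, 21 without SLIT2+APAP 2, 3532 with DESeq2 and 1 in the fit to the compared libraries alone. Without APAP 3, the log2 fold change of Jun was 4.45 in APAP against control and -3.98 in SLIT2+APAP against APAP, and that of Fosb in SLIT2+APAP against APAP was -3.82, and all 3 were still called.

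Dosed livers that had received SLIT2 were then set against control. In this comparison 0 of 8 members were called, with 0 at an unadjusted p under 0.05 and 0 by DESeq2, where 2.16% of all genes tested were called in either direction (365 genes). That number moved between 2 and 4246 over the alternatives, as 2558 without APAP 3, 2456 without APAP 4 and at most 4 without either SLIT2 or either SLIT2+APAP library, with 0 members called in each. The median log2 fold change was 0.25 over the members and 0.04 over all genes tested. The intervals were narrowest for Jund and Junb. Jund differed by 0.01 on the log2 scale (95% interval -0.67 to 0.70) and Junb by -0.11 (-1.13 to 0.91). They were wider for Fos at 0.57 (-0.64 to 1.79), Jun at 0.47 (-0.93 to 1.87) and Fosl2 at 0.03 (-1.53 to 1.59), and widest for Atf3 at 1.48 (-1.48 to 4.45), Fosl1 at 2.5 (-2.03 to 7.02) and Fosb at -0.94 (-6.31 to 4.42). SLIT2+APAP 2 was above both control libraries for Fos, Fosl1, Fosl2, Jun and Atf3. Without it, Fos was at -0.69, Jun at -0.51 and Atf3 at -0.28 relative to control. A miss of the threshold at this size does not show that the levels were equal.

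SLIT2 given without APAP also left 0 of 8 members called, with 0 at an unadjusted p under 0.05 and 0 by DESeq2, in a comparison where 54.9% of all genes tested were called in either direction (9266 genes). Fos had the lowest p of the 8, with 0.585 ± 0.0074 CPM in SLIT2 and 1.17 ± 0.102 CPM in control (SD, n = 2 each). Its log2 fold change was -1 (95% interval -2.32 to 0.33, edgeR adjusted p = 0.1736), and it was called lower in the fits without SLIT2+APAP 1, without SLIT2+APAP 2 or with only the 4 compared libraries. Fosl1 at 0.54 (-5.56 to 6.64), Jun at -0.06 (-1.46 to 1.35), Junb at 0.38 (-0.64 to 1.40) and Jund at -0.25 (-0.93 to 0.44) had libraries that overlapped those of control. Fosl2 at -0.79 (-2.39 to 0.81) and Atf3 at -0.68 (-4.02 to 2.65) did not overlap, as Fos and Fosb did not, with both SLIT2 libraries below both control libraries in these 4 of 8 members and in 41.4% of all genes tested. Prdx2, the gene opposite Junb, fell by 2.83 on the log2 scale (edgeR adjusted p = 0.0001948). The mitochondrial share and the hepatocyte sums given above also differed in this comparison. Of the 8 hepatocyte markers 6 were called lower and 0 higher, and Pck1 overlapped control. Their part in the comparison was not tested.

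Whether SLIT2 acted differently with and without APAP was tested as an interaction, the log2 difference of SLIT2+APAP against APAP minus that of SLIT2 against control. It uses the same APAP libraries as the comparisons above and is not independent of them. The interaction was called below 0 for 4 of 8 members, where 13.3% of all genes tested were called below 0. The estimates were -4.93 ± 0.90 for Jun (edgeR adjusted p = 0.008943), -3.87 ± 0.78 for Fos (edgeR adjusted p = 0.01225), -3.65 ± 0.64 for Junb (edgeR adjusted p = 0.008118) and -1.68 ± 0.42 for Jund (edgeR adjusted p = 0.02397). Atf3, Fosb, Fosl1 and Fosl2 also had negative estimates, between -6.33 and -1.64, and were not called. Over the alternatives, the estimates ranged from -5.87 to -3.89 for Jun and from -5.09 to -3.18 for Fos. Those of Junb ranged from -4.31 to -3.06 and those of Jund from -2.18 to -1.3. The number of calls changed with the library left out, both among the members and over all genes.

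To compare levels between genes, CPM was divided by the exonic length of each gene in kilobases. Jund was the most abundant member in 7 of 8 libraries and Jun in the remaining one, APAP 3. Jund made up 70.2% and 60.1% of the summed AP-1 level per kilobase in SLIT2+APAP, 20.8% and 34.7% in APAP, 59.0% and 59.2% in SLIT2 and 70.2% and 63.9% in control. The sum itself was 32.8 and 41.8 CPM per kb in SLIT2+APAP, 526 and 210 in APAP, 26.7 and 41.2 in SLIT2 and 29.4 and 42.3 in control. Outside the APAP group the sum thus stayed within 26.7 and 42.3 CPM per kb.

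Per kilobase, Jun made up 5.27% and 12.2% of the sum in SLIT2+APAP livers, 31.2% and 25.7% in APAP livers, 6.80% and 7.09% in SLIT2 livers and 7.79% and 6.26% in control livers. Atf3 took 23.4% in APAP 3 and 2.44% in APAP 4, and Fos took 3.24% in APAP 3 and 12.6% in APAP 4. The APAP libraries thus shared a large Jun component and differed in what accompanied it. The Jun proteins together were 42.9 and 20.5 times the Fos proteins per kilobase in SLIT2+APAP, 12.02 and 6.46 times in APAP, 41.8 and 88.6 times in SLIT2 and 29.0 and 42.3 times in control. Transcript ratios say nothing of how many protein dimers were present.

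**Figure D3:**
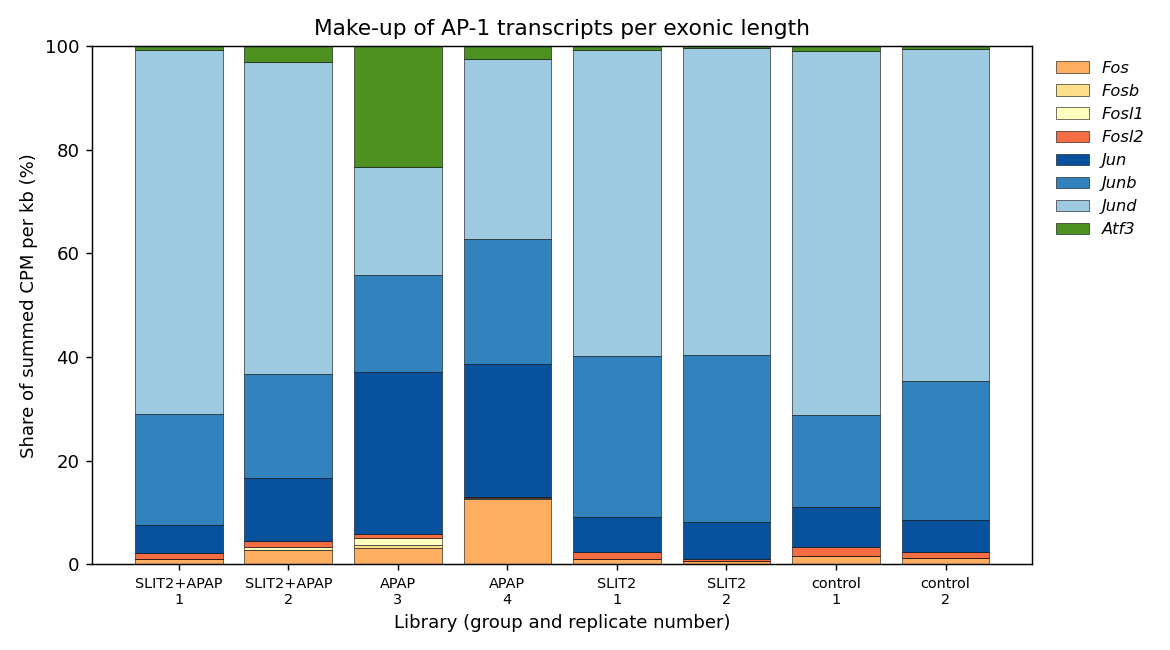
Share of each AP-1 member in the summed AP-1 level per kilobase of exon, in percent, for each of the 8 libraries, with SLIT2+APAP at the left and control at the right. Jund fills 59.0% to 70.2% of the bar outside the APAP group and 20.8% and 34.7% within it, and Atf3 is large in APAP 3 alone, at 23.4%.

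The 2 APAP libraries differed from each other for some members and not for others. Between them Fosb differed 36.3-fold, Fosl1 29.2-fold, Atf3 24.1-fold and Fosl2 5.31-fold, all higher in APAP 3. Jun differed 3.05-fold, Junb 1.94-fold and Jund 1.5-fold, again higher in APAP 3, whereas Fos was 1.55-fold higher in APAP 4. On the log2(CPM + 0.5) scale the differences of Atf3 and Fosb were larger than in 99.9% of genes tested, while those of Fos and Jund were larger than in 67.8% and 65.5%. The median difference over all genes was 0.385 in APAP, 0.151 in SLIT2+APAP, 0.270 in SLIT2 and 0.141 in control.

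Within the SLIT2+APAP group 7 of 8 members were higher in SLIT2+APAP 2, the exception being Fosb with its 3 and 2 counts. Fosl1 differed 8.99-fold there, Atf3 5.74-fold, Fos 3.76-fold and Jun 2.96-fold, against 1.19-fold for Junb and 1.09-fold for Jund. Control libraries differed most for Junb, at 2.17-fold, against 1.13-fold for Fos and 1.15-fold for Jun. Marker sums of other cell types also differed between libraries. The 8 neutrophil markers summed to 8.08 and 9.73 CPM in SLIT2+APAP, 23.0 and 8.85 CPM in APAP, 37.6 and 33.8 CPM in SLIT2 and 3.59 and 4.67 CPM in control, with Ly6g at 0 in all libraries outside APAP and Elane at 0 in both SLIT2 libraries. Most of the SLIT2 sum was Cxcr2 (26.8 and 26.3 CPM), and Mpo and Csf3r were also highest in SLIT2. S100a8 (7.05 and 1.99 CPM) and S100a9 (8.98 and 2.89 CPM) were instead highest in APAP, as was the mean of Retnlg. The 5 monocyte markers summed to 18.3 and 17.6 CPM in SLIT2+APAP, 49.5 and 29.1 CPM in APAP, 7.86 and 8.04 CPM in SLIT2 and 24.6 and 31.5 CPM in control. The sums of APAP and control overlapped, as did Lyz2, with 24.3 and 16.9 CPM in APAP and 19.9 and 26.4 CPM in control. Cd68 did not overlap, with 23.8 and 10.2 CPM in APAP and 2.21 and 2.91 CPM in control. Ccr2, Ly6c2 and Itgam overlapped, and the means of Ccr2 and Ly6c2 were lower in APAP. Ccr2 had 0.2 and 1.049 CPM in APAP and 1.311 and 1.03 CPM in control. In SLIT2, Lyz2 (2.197 and 1.865 CPM) and Ly6c2 were below both control libraries, and Cd68 overlapped control. Ccr2 (1.902 and 1.629 CPM) and Itgam (1.253 and 1.901 CPM) were instead above both control libraries in SLIT2. The 4 cholangiocyte markers, none of them at 0, summed to 7.53 and 7.78 CPM in SLIT2+APAP, 47.0 and 13.4 CPM in APAP, 19.2 and 28.4 CPM in SLIT2 and 8.22 and 9.23 CPM in control. Most of that sum in APAP was Sox9 (44.2 and 9.18 CPM), while Krt7 had 1.26 and 1.27 CPM in APAP, against 1.84 and 4.03 CPM in control. The part of these cells in the AP-1 differences was not tested.

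**Figure D4:**
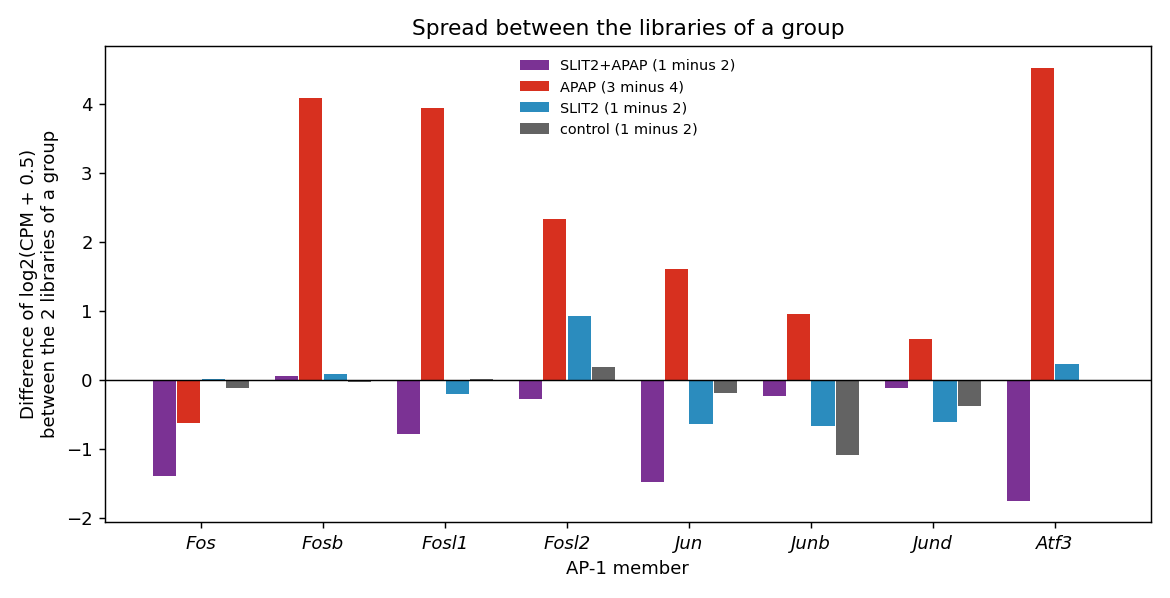
Difference of log2(CPM + 0.5) between the 2 libraries of each group (first minus second by number) for each AP-1 member, drawn as bars from 0, in SLIT2+APAP, APAP, SLIT2 and control. The APAP bars reach 4.53 for Atf3 and 4.09 for Fosb, and Fos is the one member with a negative APAP bar.

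Other bZIP proteins pair with AP-1 members, and 14 of 15 listed genes for them were tested. With APAP 0 were called in APAP against control (0.788% of all genes were called in either direction). Their median log2 fold change was 0.37 there, against 0.05 over all genes. In SLIT2+APAP against APAP, where 13.9% of all genes were called, Maff and Ddit3 were called lower and Maf higher. Maff, a small Maf protein without an activation domain, had 0.939 and 1.89 CPM in SLIT2+APAP livers and 118 and 6.92 CPM in APAP livers (-5.46 ± 1.17 on the log2 scale, edgeR adjusted p = 0.02375). For Maff, as for Atf3, APAP 3 was far above APAP 4. Ddit3, the stress factor CHOP, had 3.27 and 4.25 CPM in SLIT2+APAP and 19.9 and 8.34 CPM in APAP (-1.91 ± 0.42, edgeR adjusted p = 0.02508). Maf had 61.4 and 70.4 CPM in SLIT2+APAP and 38.1 and 35.8 CPM in APAP (0.83 ± 0.19, edgeR adjusted p = 0.02987). None of the 14 was called in SLIT2+APAP against control, where 2.16% of all genes were called. In SLIT2 against control, where 54.9% of all genes were called, 4 of 14 were, with Mafg, Maf and Batf3 higher and Atf2 lower.

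The kinases and factors that act on AP-1 genes and proteins were followed at the transcript level, which does not show their activity. None of 15 was called in APAP against control or in SLIT2+APAP against control, where 0.788% and 2.16% of all genes were called. In SLIT2+APAP against APAP, Mapk14 (the p38 kinase) and Srf (serum response factor) were called lower, 2 of 15 where 7.64% of all genes were. Mapk14 had 22.0 and 21.3 CPM in SLIT2+APAP and 69.4 and 42.9 CPM in APAP (-1.37 ± 0.25 on the log2 scale, edgeR adjusted p = 0.01569). Srf had 5.58 and 5.24 CPM in SLIT2+APAP and 11.9 and 14.7 CPM in APAP (-1.30 ± 0.24, edgeR adjusted p = 0.01639). Both APAP libraries were above both SLIT2+APAP libraries for each gene. Mapk8, which encodes the JNK1 kinase of Jun, had 13.1 and 12.9 CPM in SLIT2+APAP, 15.5 and 13.02 CPM in APAP, 10.7 and 10.5 CPM in SLIT2 and 13.3 and 12.7 CPM in control, and was called in none of these comparisons. In SLIT2 against control 7 of 15 were called, where 54.9% of all genes were. Map2k7 and Mapk10 were higher, and Mapk3, Mapk14, Map2k4 and Srf were among those lower. Mapk10 was at a very low level, with 0.634 and 0.416 CPM in SLIT2 and 0.024 and 0.063 CPM in control.

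Textbook targets of AP-1 include matrix proteases and stress genes. Of 23 listed, 20 were tested. In APAP against control 2 were called higher, Sprr1a among them, where 0.332% of all genes were called higher. The median log2 fold change of the 20 was 1.40, against 0.05 over all genes. In SLIT2+APAP against APAP 2 of the 20 were called lower, Hmox1 among them, where 7.64% of all genes were, and Mmp12 was called higher.

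Sprr1a, a small cross-linking protein of stressed epithelia, had 69 and 233 counts in SLIT2+APAP, 782 and 225 in APAP, 22 and 3 in SLIT2 and 0 and 2 in control. It was called higher than control in APAP (edgeR adjusted p = 0.03274) and in SLIT2+APAP (edgeR adjusted p = 0.03816), and was not called between SLIT2+APAP and APAP. Over summed counts on scaled library sizes SLIT2+APAP was 152 times control (95% counting interval 41.8 to 1260). Hmox1, heme oxygenase, had 2.97 and 2.36 CPM in SLIT2+APAP and 557 and 10.996 CPM in APAP, and was called lower (-6.74 ± 1.56, edgeR adjusted p = 0.02978), again with APAP 3 far above APAP 4. Mmp12, a macrophage elastase, went the other way in dosed livers, with 5.43 and 7.95 CPM in SLIT2+APAP and 2.31 and 3.53 CPM in APAP (1.20 ± 0.29, edgeR adjusted p = 0.03307). In SLIT2 against control Mmp12, Vegfa and Plau were called higher and Mmp14 and Spp1 lower.

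Genes whose pattern over the 8 libraries was most like that of Fos, Jun and Atf3 were ranked by the root mean square difference of log2(CPM + 0.5), each centred on its own mean, among 9238 genes with at least 5 CPM in the highest group mean. For Fos the nearest included Btg2 (0.497), Gdf15 (0.723), Rsc1a1 (0.792) and Igfbp1 (0.810), and Jun was at 0.621. Jun was most like Gdf15 (0.231), Rsc1a1 (0.463), Btg2 (0.540) and Egr1 (0.639). Atf3 was most like Gadd45b (0.761), Gadd45a (0.779), Maff (0.815), Hmox1 (0.835) and Gdf15 (0.849), at larger distances. Rsc1a1 lies within Ddi2, and its count is uncertain. Gdf15, a secreted stress cytokine, had 2.89 and 5.71 CPM in SLIT2+APAP, 241 and 64.8 CPM in APAP, 3.24 and 4.53 CPM in SLIT2 and 3.37 and 3.92 CPM in control. Gadd45b, a stress sensor, had 364 CPM in APAP 3 and 6.17 CPM in APAP 4, and at most 2.57 CPM in the other libraries. Gdf15 was high in both APAP libraries, as Jun was, and Gadd45b mainly in APAP 3, as Atf3 was.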

How the data were processed

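The authors deposited unscaled, whole-number counts for each Ensembl gene, and all 8 library columns were used. Per the submitters' processing notes, Cufflinks, Cuffdiff 2.2.1 and STAR 2.5.4 were used with mm10, in roles that are not stated, and the labels name a directional library kit. The counting tool, its strand setting and its treatment of multiply mapped reads are not stated either. Symbols and exonic lengths came from GENCODE on GRCm38 and matched 22329 identifiers (97.1%), and promoters came from RefSeq.

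Counts were tested in R 4.3.3 with edgeR 4.0.16 (filterByExpr, TMM, robust non-legacy quasi-likelihood fit, 1 mean per group, all 8 libraries, 4 residual degrees of freedom). Members, lists and tests were chosen with earlier results of these data known. All 8 members are named in every comparison, and called genes of 3 lists (partners, upstream factors, targets), a few of which are not reported here, Mapk8 being chosen after its values were seen. Up to 5 of the nearest genes by pattern are named for Fos, Jun and Atf3. Intervals on summed counts cover counting error only. Alternatives were DESeq2 1.42.0, other scalings and filters, GC offsets, and libraries left out, where the 1 library left in a group was taken to vary as other groups do. Same-numbered libraries of control, SLIT2 and SLIT2+APAP were checked for pairing. The test was checked on simulated data, and figures were drawn with matplotlib 3.10.9.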

Additional observations from a re-analysis of the deposited data

Results flagged for a closer look

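By the test of the interaction, the effect of SLIT2 differed between dosed and undosed livers for 4 of 8 members. All 4 were called below 0, as were 13.3% of all genes tested. The interaction uses the same APAP libraries as SLIT2+APAP against APAP, so it is not independent of that comparison. The log2 estimates were -4.93 for Jun, -3.87 for Fos, -3.65 for Junb and -1.68 for Jund. In each case SLIT2+APAP livers were lower than APAP livers, while the difference between SLIT2 and control livers was not called. The call of Jun held in all 17 alternatives, that of Junb was lost without SLIT2+APAP 1, that of Fos without control 1 or SLIT2 2, and that of Jund without SLIT2+APAP 1, SLIT2+APAP 2, SLIT2 2, control 1 or control 2.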

How the results depend on the processing

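Of the 8 members, 4 were called higher in APAP against control. This became 8 with DESeq2, 6 with library totals, 3 with GC offsets and 2 with the legacy edgeR fit. It was 0 with only the libraries compared and 0 without the SLIT2 libraries, and it changed with libraries left out, as given above. Jund was not called with GC offsets (1.59 ± 0.27 on the log2 scale, edgeR adjusted p = 0.06258), and neither Junb nor Jund with the legacy fit. For SLIT2+APAP against APAP the 6 calls became 0 with only the libraries compared and ranged from 1 to 8 with libraries left out. The 0 calls of SLIT2 against control became 1 (Fos) with only the libraries compared, and the call of Fos also changed with libraries left out, as given above. The 4 interaction calls changed with libraries left out, as did the calls below 0 over all genes. In SLIT2+APAP against control 0 were called in every alternative run. No called member changed direction in any alternative. The cause of these changes was not tested.

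Over all genes, 133 were called in APAP against control (42.1% of them higher), 1836 with DESeq2, 54 with the legacy fit, 72 with GC offsets, 205 with no count filter and 0 both with only the libraries compared and without the SLIT2 libraries. Scaling by library totals called 236 (61.4% higher) and put the median log2 fold change of all genes at 0.16, against 0.05 with TMM. With library totals 61.0% of calls were higher in SLIT2+APAP against APAP (45.1% with TMM) and 68.5% in SLIT2+APAP against control (33.2% with TMM), with medians of 0.12 (-0.06 with TMM) and 0.34 (0.04 with TMM). For SLIT2+APAP against APAP 5 of the 6 calls were left with no count filter, at a minimum of 10 CPM in 2 libraries (where Fosb was not tested), without the SLIT2 libraries, and without each control library, each SLIT2 library or APAP 3. The 365 calls over all genes in SLIT2+APAP against control became 4246 with only the libraries compared, 1455 with DESeq2, 3 without the SLIT2 libraries, and 2 to 2558 with libraries left out.

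Libraries sharing a number did not deviate together across genes (correlations of 0.0666, -0.0591 and -0.0232). This check takes all genes together, so it cannot exclude a pairing that affects some of them. With a replicate block, 0 members were called in SLIT2+APAP against control and in SLIT2 against control, as without it, also with GC offsets. Over all genes the block gave 154 calls in place of 365 in SLIT2+APAP against control and 8495 in place of 9266 in SLIT2 against control. Counting depth limits Fosb and Fosl1, which had 0 to 6 counts in each library outside APAP, except for 44 of Fosl1 in SLIT2+APAP 2.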
